A study of Mus musculus with 36 samples.

Results

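The clustered histone genes are mainly the replication-dependent histone genes of the mouse. They were taken here as every entry whose symbol opens with Hist1h, Hist2h, Hist3h or Hist4h. The rule found 69 of the 37561 gene entries in each of the 6 deposited tables: 6 genes for the linker histone H1, 19 for H2a, 19 for H2b, 12 for H3 and 13 for H4. No symbol had more than 1 entry, and the rule used symbols only, not measured values. Each class was read from the letters that follow the cluster number in the symbol. By this rule the H2b genes include Hist3h2bb-ps, whose symbol marks a pseudogene (mean 1.81 FPKM over the 36 libraries).

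RNA was measured in 36 libraries, 3 in each of 12 groups, from mouse AB2.2 embryonic stem cells. The control groups were AB2.2 cells, and the knockout groups were AB2.2 LncCPR-/- cells, from which a long noncoding RNA gene had been removed with Cas9, GFP and a pair of guides on either side of it. Both lines were sampled undifferentiated with leukemia inhibitory factor in serum medium (day 0) and as whole embryoid bodies without that factor at days 3, 5, 8, 10 and 12 after hanging drops were set up. Knockout cells were grown from single sorted cells. How many such lines stand behind the 18 knockout libraries is not stated, so a difference between lines cannot be told apart from a difference between clones. Nothing in the labels says that the 3 replicates of a group were separate cultures, and p-values therefore measure only the spread between these samples. No entry was named LncCPR, so the deletion could not be checked on its own transcript. A gene picked for separating the lines, 4930500J02Rik, ranged from 5.66 to 49.5 FPKM over the control libraries, while 16 of the 18 knockout libraries were listed at 0 and the highest reached 0.280 FPKM.

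Clustered histone genes are transcribed mainly while DNA is copied, so that newly made DNA can be wrapped into nucleosomes of H2a, H2b, H3 and H4 and closed by linker histone H1. Their messenger RNAs have no poly(A) tail: they end in a conserved stem-loop that is bound by the stem-loop binding protein Slbp, and they are cleared when DNA synthesis stops. Libraries made from total RNA after removal of ribosomal RNA, as here, hold these transcripts, while libraries selected on poly(A) mostly lose them. In bulk samples, fewer cells of a kind and less RNA per cell cannot be told apart.

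The 3′ stem-loop is the sequence that sets these messages apart, and its forms differed by class. In GENCODE M21 transcripts, matched for all 69 members, the annotated transcript of 46 members held it, against 0.0678% of the 141688 other transcripts. Some members without it have short annotated transcripts, such as Hist1h4k (312 bases), Hist1h2bl (381 bases) and Hist1h2ai (393 bases), which may end before a loop. Others are long, such as Hist2h2bb (1511 bases). A stem-loop not found here is therefore not shown to be absent. The forms are shown 5′ to 3′ as DNA letters, with the 6 bases of each stem arm in lower case and the 4-base loop in capitals.

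Hist1h1c, Hist1h2bj, Hist1h3a and 23 further members, none of them H4: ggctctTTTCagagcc
Hist1h2bb, Hist1h2bk, Hist1h3c, Hist1h3e, Hist1h3f and Hist1h1t: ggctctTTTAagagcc
Hist1h4d, Hist1h4n, Hist4h4 and 4 further H4 genes: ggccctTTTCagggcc
Hist1h4i and Hist2h4: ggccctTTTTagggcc
Hist1h4b and Hist1h4j: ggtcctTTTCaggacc
Hist1h3g: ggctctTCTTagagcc

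None of the stem-loops found in H4 genes had the stem of the other classes. The remaining forms belonged to 1 gene each, Hist1h4a (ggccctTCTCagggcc) and Hist2h2ac (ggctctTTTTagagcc). Several annotated transcripts run on well past the loop: by 840 bases in Hist1h1c, 1643 bases in Hist3h2a, 1861 bases in Hist1h2be and 2445 bases in Hist4h4, against 11 bases in Hist1h2ab and 23 bases in Hist1h2bj. Hist1h1c, Hist1h2be, Hist3h2a and Hist4h4 are among the members known to be polyadenylated in some cells. Such lengths are not particular to the members listed here as polyadenylated. Hist1h1d (4884 bases), Hist2h3c1 (2462 bases) and Hist1h2ac (2010 bases) are not on that list, while Hist3h2ba, which is, runs on by 169 bases. No loop was found in Hist1h2bc and Hist2h2be, also on the list.

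Promoters were compared over the 300 bases from 250 before to 50 after the RefSeq start (GRCm38.p6), found for 60 members. The octamer ATTTGCAT, read on both strands like the other motifs, was present in 7 of 16 H2a and 7 of 16 H2b promoters and in none of the H1, H3 and H4 promoters, against 1.74% of all 32851 promoters of that length. Divergent H2a and H2b genes can share most of a window, as Hist1h2ah and Hist1h2bk or Hist1h2ae and Hist1h2bg do. Counts for these classes therefore hold some stretches more than once. CCAAT was found in 48 of 48 promoters outside H4 but in 3 of 12 H4 promoters (37.4% of all promoters), and GGTCCG, part of the H4 promoter element, in 11 of 12 H4 promoters and 2 of the 48 others (8.25%). TATAAA was present in 34 of 60 (13.6%). No motif is contained in another.

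The 4 promoters below belong to the members on which the line comparisons turn, and each shows the 250 bases before the start on the gene's own strand, with the motifs above in capitals on either strand. The first lies between Hist1h2aa and Hist1h2ba, whose starts have 280 bases between them and point away from each other, and it spans most of the stretch between them. The last lies between Hist1h2bj and Hist1h2ag, an H2a gene, whose starts also point away from each other with 248 bases between them. Hist1h4i lies on the other side of Hist1h2ag.

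Hist1h2aa (GRCm38.p6, chr13:23934187-23934436, plus strand): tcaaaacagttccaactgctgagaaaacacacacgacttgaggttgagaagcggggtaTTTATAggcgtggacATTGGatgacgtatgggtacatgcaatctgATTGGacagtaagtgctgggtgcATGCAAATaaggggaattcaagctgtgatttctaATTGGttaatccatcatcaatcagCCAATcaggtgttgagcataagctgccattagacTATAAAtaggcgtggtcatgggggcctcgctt
Hist1h1a (GRCm38.p6, chr13:23763418-23763667, plus strand): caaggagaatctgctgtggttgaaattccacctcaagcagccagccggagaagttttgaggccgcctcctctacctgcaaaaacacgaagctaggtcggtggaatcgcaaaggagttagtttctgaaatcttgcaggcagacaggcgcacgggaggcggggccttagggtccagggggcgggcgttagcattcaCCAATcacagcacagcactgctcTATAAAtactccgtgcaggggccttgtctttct
Hist1h4i (GRCm38.p6, chr13:22041363-22041612, minus strand): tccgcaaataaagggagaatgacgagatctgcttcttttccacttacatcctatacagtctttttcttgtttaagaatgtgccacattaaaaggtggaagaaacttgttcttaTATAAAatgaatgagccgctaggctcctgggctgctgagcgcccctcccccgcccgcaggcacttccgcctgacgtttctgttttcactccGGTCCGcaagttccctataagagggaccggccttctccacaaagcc
Hist1h2bj (GRCm38.p6, chr13:22042948-22043197, plus strand): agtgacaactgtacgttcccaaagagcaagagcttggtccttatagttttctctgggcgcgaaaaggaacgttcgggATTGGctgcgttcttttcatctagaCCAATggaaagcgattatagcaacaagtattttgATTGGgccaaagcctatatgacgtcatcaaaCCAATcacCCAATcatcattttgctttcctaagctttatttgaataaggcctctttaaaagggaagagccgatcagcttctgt

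The Hist1h2aa interval holds 1 octamer, 4 CCAAT boxes and 2 TATAAA motifs, and that of Hist1h2bj holds 5 CCAAT boxes. Hist1h4i has the GGTCCG element and no CCAAT box. Hist1h1a has 1 CCAAT box followed by 1 TATAAA motif. These matches are descriptions of the letters in each window.

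Values are FPKM, fragments per kilobase of transcript scaled to the mapped fragments of the library, as the authors deposited them. The unit is per length of the annotated transcript, so levels set side by side between genes depend on that annotation. GENCODE lengths differ widely, with 312 bases for Hist1h4k and 7425 bases for Hist1h1d, and the lengths that the authors used are not stated. The absolute depth behind them is unknown. The values of a library summed to 294740 to 403675 FPKM, and factors that bring the libraries of a day to a common scale ran from 0.717 to 1.14. The mitochondrial ribosomal RNA mt-Rnr2 was above 0 in 4 libraries, control replicates 1 and 2 at day 3, knockout replicate 1 at day 8 and knockout replicate 3 at day 12. Histone genes of a class are near copies: of the 50-base windows of a member's transcripts, a median of 49.5% also occurred in another member, and 33 members shared more than they had alone. How the authors' counting divided fragments among such copies is not stated, so single members with high sharing are uncertain, and class sums can shift too, since members of a class differ in annotated length.

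Averaged over the 36 libraries, 58 of the 69 genes reached 1 FPKM and 11 had more than 100 FPKM. Hist1h2bb was the most abundant (mean 748 FPKM), followed among H2b genes by Hist1h2bg (133 FPKM). The other leading pairs were Hist1h1a (375 FPKM) and Hist1h1b (317 FPKM), Hist1h4d (353 FPKM) and Hist1h4b (184 FPKM), Hist2h2ac (322 FPKM) and Hist1h2ak (137 FPKM), and Hist1h3b (78.2 FPKM) and Hist1h3c (58.2 FPKM). A gene was tested at a day when its 6 libraries averaged at least 1 FPKM. By this filter 55 members were tested at all 6 days, 7 at some days, and 7 at none: Hist1h2aj, Hist1h2ao, Hist1h2bq, Hist1h2br, Hist2h2aa2, Hist2h2be and Hist2h3c2.

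In both lines the summed level was higher through day 5 than at days 8 to 12. In control, the 69 genes summed to 5575 ± 80.3 FPKM at day 0, 6634 ± 1986 FPKM at day 3, 5713 ± 772 FPKM at day 5, 3526 ± 537 FPKM at day 8, 2791 ± 276 FPKM at day 10 and 3960.0 ± 645 FPKM at day 12 (SD, n = 3 at each day). In knockout the sums were 5164 ± 170 FPKM, 6524 ± 1252 FPKM, 6547 ± 502 FPKM, 4486 ± 1103 FPKM, 4031 ± 317 FPKM and 3933 ± 407 FPKM at the same days (SD, n = 3 each). These sums were 0.797% to 2.23% of a library's summed FPKM over both lines. Each day is a table of its own, and whether the tables share 1 normalization is not stated, so levels across days are described without a test.

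Member by member, the control line at day 10 lay below day 0 without overlap of libraries for 44 of the 58 members and above it for 2, while 43.9% of all genes lay below and 31.3% above. The median difference of the members was -0.99 on the log2(FPKM + 1) scale against -0.17 over all 13022 genes. With all libraries brought to a common scale, 39 members lay below and the medians were -0.67 and 0.11. In the knockout line the members' median at day 10 was -0.39 against 0.04 over all genes.

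**Figure D1:**
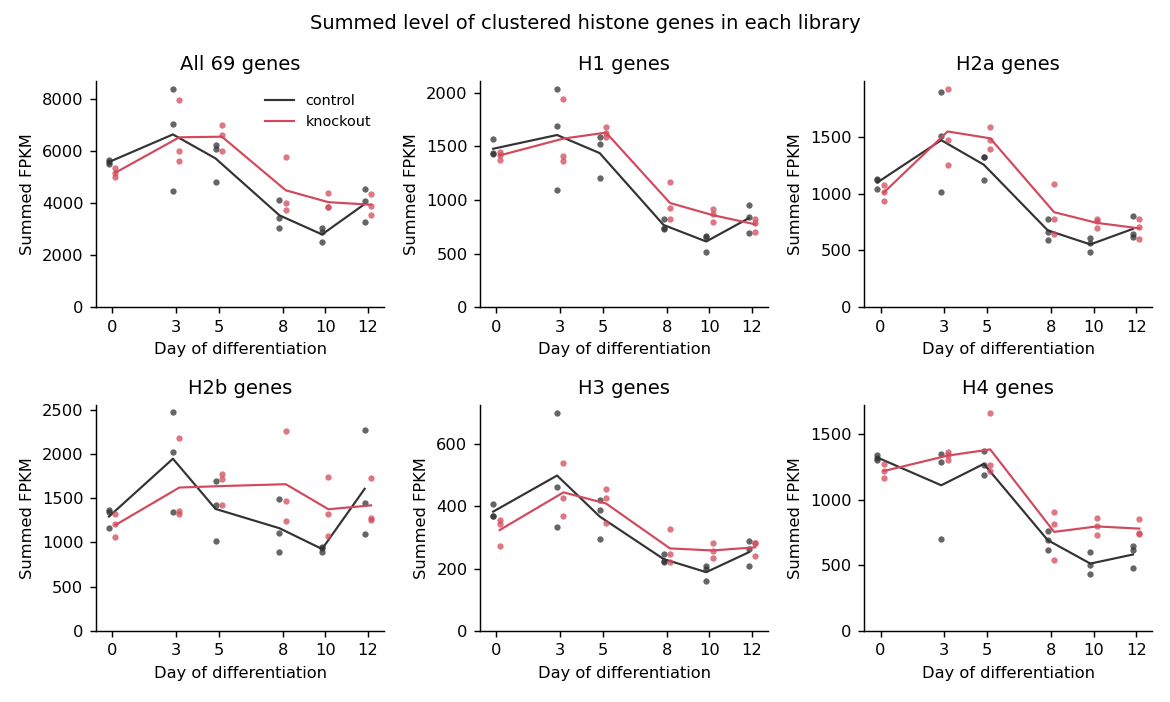
Summed FPKM of all clustered histone genes and of each class (y axis, FPKM) by day of differentiation (x axis) in control (dark) and knockout (red) libraries; each point is 1 library and lines join the means of 3. At day 10 every knockout library lies above every control library in each of the 6 panels.

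Classes differed in how far they came down between days 0 and 10. In control, H4 went from 1324 ± 17.03 FPKM at day 0 to 513 ± 85.7 FPKM at day 10 and H1 from 1478 ± 75.5 FPKM to 612 ± 83.4 FPKM (SD, n = 3). H2b went from 1292 ± 109 FPKM to 925 ± 30.7 FPKM, and its share of the histone sum from 23.2% to 33.3%. The H2b sum was carried by Hist1h2bb, which stood at 540 ± 80.2 FPKM at day 0 and at 547 ± 51.6 FPKM at day 10. Without Hist1h2bb the H2b genes summed to 752 ± 28.7 FPKM and 378 ± 67.6 FPKM. At day 12 the control H2b sum was 1605 ± 604 FPKM, with a mean above that of day 0. In knockout the mean H2b sum did not come down (1196 ± 127 FPKM at day 0, 1374 ± 338 FPKM at day 10, 1418 ± 272 FPKM at day 12). Without Hist1h2bb it was 715 ± 81.1 FPKM at day 0 and 620 ± 69.9 FPKM at day 10. Knockout H4 went from 1221 ± 50.3 to 797 ± 62.4 FPKM and H1 from 1416 ± 35.1 to 859 ± 59.1 FPKM between these days.

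Day 10 had the most differences between the lines in these genes. Of 57 members tested, 28 were higher in the knockout and 0 were lower (limma, adjusted p under 0.05). Over all 12938 genes tested that day 20.2% were called, 15.0% higher and 5.12% lower. At an unadjusted p under 0.05 there were 40 members. The share of all genes at this unadjusted threshold is not given, here or at the other days. Such counts therefore cannot be set against all genes. The fold change was above 0 for 56 of 57 members (70.0% of all genes), the exception being Hist1h3d (-0.13), and the 3 knockout libraries all lay above the 3 control libraries for 31 of 57 (30.9% of all genes) and below them for 0 (9.47%). The median log2 fold change was 0.51 for the members and 0.17 for all genes, and the latter marks a general shift between the libraries of this day.

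All classes took part, with H4 and H2b having the most calls. Of the tested members, 10 of 12 H4, 9 of 15 H2b, 3 of 10 H3, 4 of 14 H2a and 2 of 6 H1 genes were higher. Class medians of the log2 fold change were 0.71 for H4, 0.63 for H2b, 0.46 for H3, 0.41 for H1 and 0.36 for H2a. Whether classes differ from each other was not tested.

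The 69 genes together summed to 2869, 3019.9 and 2485 FPKM in the control libraries of day 10 and to 4397, 3851 and 3845 FPKM in the knockout libraries. The knockout sum was thus 1.44 times the control sum, and the groups did not overlap. The class ratios ran from 1.34 for H2a to 1.55 for H4. The H2b ratio was 1.49 with Hist1h2bb and 1.64 without it, so the order of the classes turns on that gene. Without Hist1h2bb the ratio of the whole sum was 1.46. With libraries brought to a common scale the ratio of the whole sum, Hist1h2bb included, was 1.27.

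**Figure D2:**
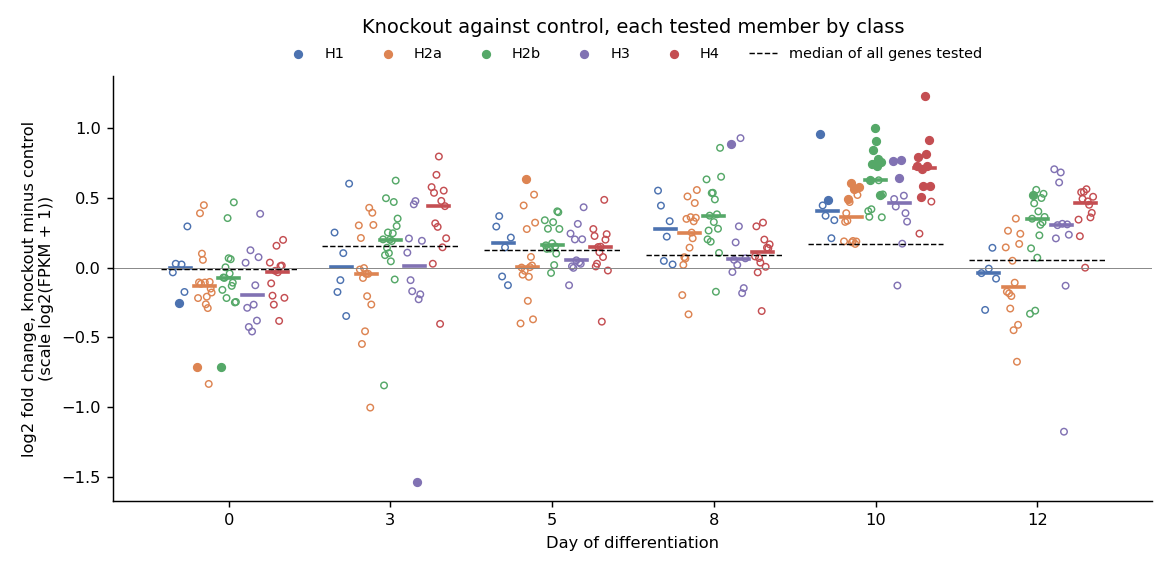
Knockout minus control log2 fold change on the log2(FPKM + 1) scale (y axis) of every tested member at each day (x axis), coloured by class; filled points passed the limma test, thick bars are class medians and dashed lines the median of all genes tested. Filled points are concentrated at day 10, where 28 members were called higher, against 1 to 3 called in either direction at each other day. Of all genes tested, 20.2% were called at day 10 and 1.75% to 14.5% at the other days.

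Hist1h4i, an H4 gene, had the largest difference at day 10. The control libraries held 3.53, 6.34 and 4.30 FPKM, and the knockout libraries 11.1, 11.9 and 13.5 FPKM. In limma the log2 fold change was 1.23 (SE 0.180, adjusted p = 6.46e-04). Every knockout library held more than the highest control library. Hist1h2bj, an H2b gene, had 4.09, 2.41 and 2.03 FPKM in the control libraries and 7.11, 5.21 and 7.33 FPKM in the others (1.00, SE 0.204, adjusted p = 0.00526). These 2 genes head the list by fold change. Hist1h2ag, which lies across the promoter interval from Hist1h2bj, had 15.2, 25.4 and 16.0 FPKM in the control libraries and 30.8, 26.6 and 20.8 FPKM in the knockout libraries, with overlap, and did not pass (0.47, SE 0.194, adjusted p = 0.101). Whether Hist1h2bj and Hist1h2ag differ in their response was not tested. Of the 50-base windows of Hist1h4i and Hist1h2bj, 28.9% and 59.4% occur in other members.

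Hist1h1a, which encodes linker histone H1.1, was among the most abundant genes called. Its control libraries at day 10 held 124, 112 and 90.5 FPKM and its knockout libraries 201, 223 and 205 FPKM (0.95, SE 0.149, adjusted p = 0.00108). The groups were well apart, and none of its 50-base windows occurs in another member. Hist1h4n, an H4 gene, held 25.2, 29.4 and 12.1 FPKM in control and 41.4, 46.5 and 33.7 FPKM in knockout (0.91, SE 0.247, adjusted p = 0.0208), but 85.6% of its windows are shared.

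The smallest changes that passed were those of Hist1h1d (0.48), Hist1h2af (0.49), Hist1h4d (0.50) and Hist1h2bp (0.52). Hist1h4d, the most abundant H4 gene, held 208, 249 and 190 FPKM in control and 266, 334 and 315 FPKM in knockout (SE 0.158, adjusted p = 0.0397). Its groups did not overlap. Among abundant members that did not pass, Hist1h2bb held 593, 491 and 556 FPKM in control and 1077, 528 and 659 FPKM in knockout (0.40, SE 0.228, adjusted p = 0.223), and these overlapped. Hist2h2ac, the leading H2a gene, had 0.52 with an adjusted p of 0.0522, and Hist1h1c had 0.37 with an adjusted p of 0.128.

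**Figure D3:**
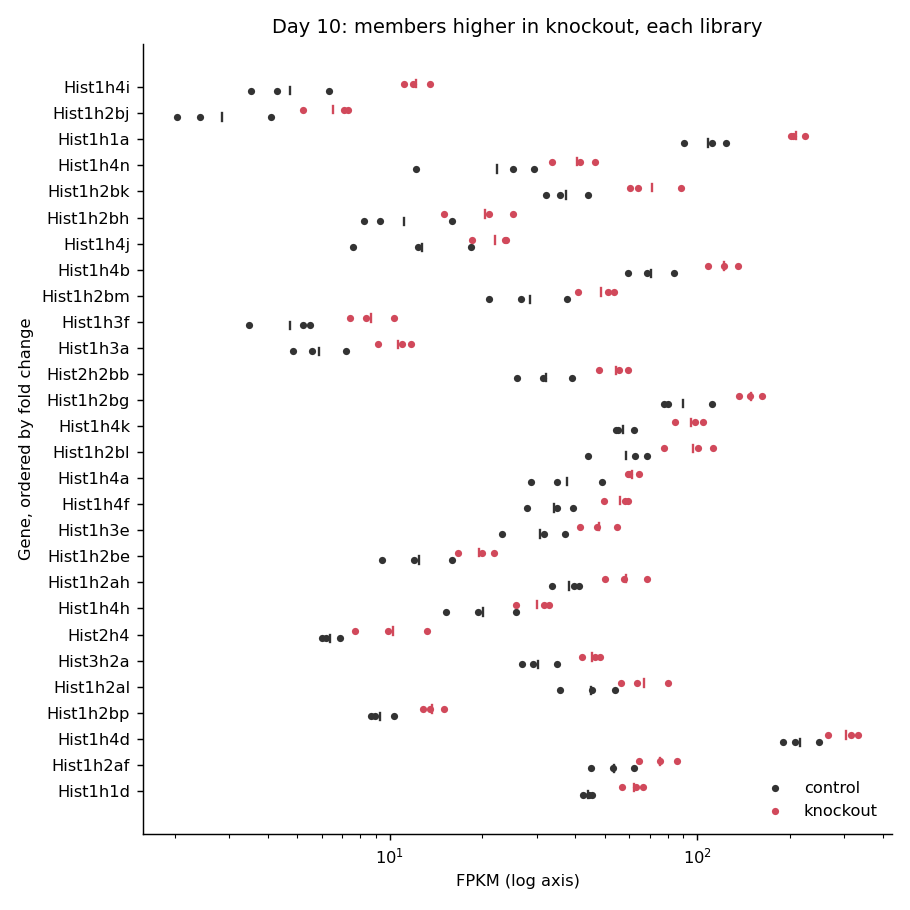
FPKM at day 10 (x axis, log scale) of the 28 members called higher in the knockout, 1 row per gene in order of fold change, with the 3 control libraries (dark) and 3 knockout libraries (red) as points and the means as ticks. Points overlap between lines for Hist1h2bh and Hist1h4h and for no other gene shown.

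The number of calls depended on single libraries. Control replicate 3 had the lowest histone sum of day 10, and without it 17 members were higher in place of 28. That library stood apart in other ways: its 10 most abundant genes held 30.3% of its summed FPKM, against 12.4% to 16.4% in the other 5 libraries of the day, and its scaling factor was 0.821 against 0.974 to 1.09. The part of this in the calls was not tested beyond leaving the library out and rescaling. For the fits without 1 library no share of all genes is given here. Changes in their counts therefore cannot be told apart from a general change in calls. In each of the 6 fits that left out 1 library, 13 members were higher, and 12 of these also passed after rescaling: Hist1h1a, Hist1h2bg, Hist1h2bj, Hist1h2bk, Hist1h3a, Hist1h3f, Hist1h4a, Hist1h4b, Hist1h4f, Hist1h4i, Hist1h4k and Hist2h2bb. With libraries brought to a common scale 19 members were higher and 0 lower, when 21.0% of all genes were called, 9.55% higher. The calls lost by rescaling include the lower end of the range, such as Hist1h4d and Hist1h2af, and also Hist1h4n.

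Of 18 genes for the synthesis and processing of histone mRNA, 4 were higher and 0 lower at day 10, a share near the 15.0% of all genes that were higher, with a median log2 fold change of 0.30 against 0.17 over all genes. Slbp, which binds the stem-loop, rose from 44.3 ± 8.25 to 66.9 ± 3.55 FPKM (SD, n = 3; log2 fold change 0.60, adjusted p = 0.0158, limma), and Cpsf3, the nuclease that cuts histone pre-mRNA, from 23.0 ± 2.60 to 33.2 ± 4.79 FPKM (0.51, adjusted p = 0.0289). Cstf2, a cleavage stimulation factor, was the next (0.50, adjusted p = 0.0279). Npat, the coactivator of histone gene transcription, stood at 16.4 ± 2.26 and 17.7 ± 1.52 FPKM (0.11, adjusted p = 0.635).

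Histone chaperones had 8 of 17 tested genes higher and 0 lower, when 15.0% of all genes were higher and 5.12% lower. Their median log2 fold change was 0.42 against 0.17 over all genes. Nasp, a chaperone of H3 and H4, rose from 168 ± 22.6 to 297 ± 28.1 FPKM (0.83, adjusted p = 0.00316), Hat1, which acetylates new H4, from 66.25 ± 10.1 to 109 ± 4.72 FPKM (0.72, adjusted p = 0.00471), and Supt16h, a subunit of FACT, from 69.9 ± 7.57 to 112 ± 7.16 FPKM (0.67, adjusted p = 0.00526). DNA replication genes had 16 of 28 higher and 0 lower, with a median of 0.51, beside 0.51 for the clustered histone genes and 0.17 for all genes. Mcm7 (0.92, adjusted p = 0.00194), Mcm5 (0.80, adjusted p = 0.00306) and Uhrf1 (0.74, adjusted p = 0.00223) had the lowest adjusted p-values, while Pcna, the sliding clamp, did not pass (11.1 ± 4.44 and 15.55 ± 2.86 FPKM; 0.50, adjusted p = 0.113).

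Replacement variants, histone genes outside the clusters, had 3 of 11 higher and 0 lower, when 15.0% of all genes were higher and 5.12% lower. Their median of 0.21 is near the 0.17 of all genes. H2afv (0.45, adjusted p = 0.0290), H2afx (0.51, adjusted p = 0.0477) and H3f3b (0.45, adjusted p = 0.0492) passed. H2afz did not (7.03 ± 2.36 and 7.77 ± 1.71 FPKM; 0.15, adjusted p = 0.645). Of 4 tested RNAs from a list of other non-polyadenylated RNAs, 0 passed at day 10, and their median was 0.04, though only 5 of the 13 listed names were in the tables.

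Markers of the cells in the embryoid bodies differed between the lines at the same day. Over all genes 15.0% were higher and 5.12% lower. Of the pluripotency markers Pou5f1, Nanog, Sox2, Zfp42 and Esrrb, 5 of 5 were higher, and their sum was 40.4 to 66.3 FPKM in control and 119 to 140.3 FPKM in knockout libraries. Of the cardiomyocyte markers, 4 of 4 tested were lower (745 to 759 FPKM against 138 to 242 FPKM), as were 4 of 4 fibroblast markers (92.0 to 132 FPKM against 34.0 to 45.2 FPKM), 4 of 5 visceral endoderm markers (493 to 836 FPKM against 229.8 to 279.8 FPKM) and 2 of 3 primitive blood markers (34.6 to 87.5 FPKM against 13.3 to 49.6 FPKM). Of 3 neural markers tested 0 passed (20.2 to 21.3 FPKM against 24.1 to 26.5 FPKM), and 1 of the germ cell markers was tested and was higher (list sum 7.95 to 9.91 FPKM against 16.3 to 18.01 FPKM). Of 4 markers of streak and cardiac mesoderm, 1 was higher and 1 lower (45.1 to 65.9 FPKM against 48.2 to 60.1 FPKM). The part of these cell differences in the histone levels was not tested.

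At day 12 most of this difference was not called. Of 56 members tested 1 was higher and 0 lower (6.71% of 13089 genes called, 3.22% higher and 3.48% lower), with 18 members at an unadjusted p under 0.05. Hist1h2bf, an H2b gene, held 33.4, 31.9 and 25.4 FPKM in control and 39.7, 45.5 and 45.2 FPKM in knockout (0.52, SE 0.124, adjusted p = 0.0420, limma), and it did not pass in any of the 6 fits without 1 library. Without control replicate 2, 4 other members were higher and 2 lower. Knockout libraries lay above all control libraries for 18 of 56 members and below them for 0 (18.2% and 11.8% of all genes), among them 8 H2b, 5 H4, 4 H3 and 1 H2a gene.

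The classes went different ways at day 12. The H4 sum was 1.34 times as high in knockout (583 ± 87.2 and 781 ± 65.4 FPKM, SD, n = 3, no overlap), while H1 stood at 0.931 and H2a at 1.01 times the control. The H2b ratio was 0.883 with Hist1h2bb and 1.25 without it. Hist1h2bb held 981, 584 and 1866 FPKM in the control libraries of this day, so the H2b sum and the total sum (ratio 0.993, and 1.098 without Hist1h2bb) rest on 1 gene in 1 library. Of the pluripotency markers 0 of 5 were called at this day (54.7 to 115.7 FPKM against 59.7 to 79.97 FPKM). In contrast, 4 of 5 cardiomyocyte markers and 5 of 5 fibroblast markers were lower. Over all genes 3.22% were higher and 3.48% lower.

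At day 0, 3 of 59 members were lower and 0 higher in the knockout (14.5% of 12197 genes called, 6.49% higher and 8.03% lower). At an unadjusted p under 0.05 there were 13. Without control replicate 1 there was 1 call. All knockout libraries lay above the control libraries for 4 members and below them for 10 (16.8% and 19.7% of all genes). The total sum was 5488, 5592 and 5645 FPKM in control and 5346, 5136 and 5011 FPKM in knockout, a ratio of 0.926 with no overlap. The median log2 fold change was -0.11 for members and -0.01 for all genes.

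Hist1h2aa, the testis-type H2a gene also named TH2A, was the clearest of the 3. The control libraries held 61.7, 60.8 and 68.9 FPKM and the knockout libraries 39.3, 37.2 and 39.0 FPKM. The limma log2 fold change was -0.71 (SE 0.064, adjusted p = 9.77e-04). The groups were far apart, and 2.35% of its 50-base windows occur in another member. Its divergent neighbour Hist1h2ba, the testis-type H2b gene TH2B, held 2.78, 2.81 and 2.18 FPKM and 0.917, 1.23 and 1.45 FPKM (-0.71, SE 0.141, adjusted p = 0.0178). Both genes of the pair were lower, on a scale that compresses low levels. The means were 63.8 and 38.5 FPKM for Hist1h2aa and 2.59 and 1.198 FPKM for Hist1h2ba. Hist1h2ba stood under 3 FPKM in every library of the day and its call was lost without control replicate 1, without control replicate 2 or without knockout replicate 1.

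Hist1h1t, the testis-type linker histone, did not follow them. It held 8.23, 10.0 and 9.88 FPKM in control and 12.7, 10.9 and 11.5 FPKM in knockout (0.29, SE 0.0995, adjusted p = 0.0880). All knockout libraries lay above the control libraries, without passing the test. Of 5 germ cell markers 4 were higher in the knockout at day 0 and 0 lower (101.5 to 103 FPKM against 124 to 131 FPKM). Over all genes 6.49% were higher and 8.03% lower. Among these markers Dazl differed the most (0.78, adjusted p = 0.00170, limma). The direction of Hist1h2aa and Hist1h2ba was thus opposite to that of the germ cell markers called.

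**Figure D4:**
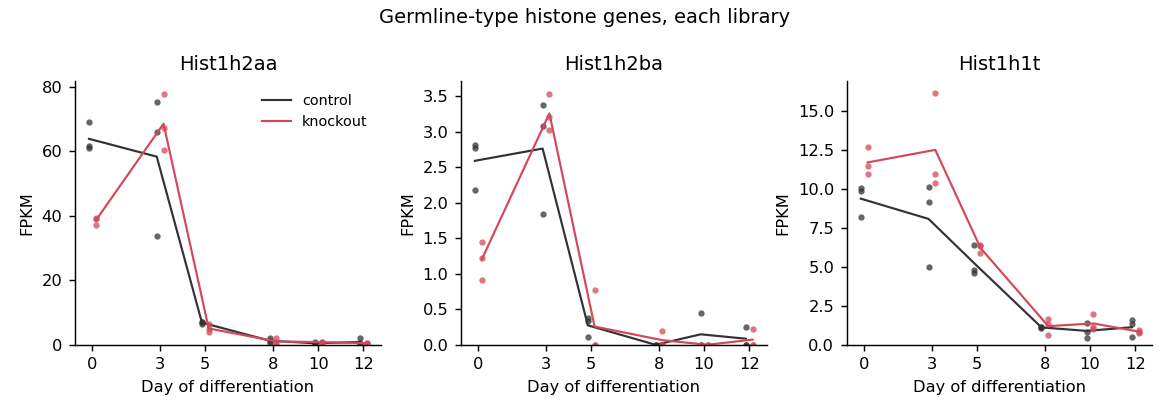
FPKM (y axis) of the germline-type genes Hist1h2aa, Hist1h2ba and Hist1h1t by day (x axis) in control (dark) and knockout (red) libraries, with points for libraries and lines through the means of 3. The knockout libraries lie below the control libraries at day 0 for Hist1h2aa and Hist1h2ba, and all 3 genes are near 0 from day 8 on.

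The 3 germline-type genes came down early in both lines. At day 3 the Hist1h2aa means were 58.3 ± 21.9 FPKM for control and 68.5 ± 8.76 FPKM for knockout, in the opposite order to day 0, and the test was not passed (0.30, adjusted p = 0.759). At day 5 it stood at 6.86 ± 0.330 and 5.05 ± 1.38 FPKM, and at day 10 at 0.464 ± 0.423 and 0.821 ± 0.196 FPKM (SD, n = 3). Hist1h2ba stood at 2.76 ± 0.816 and 3.26 ± 0.259 FPKM at day 3 and under 1 FPKM in every library from day 5 on. Hist1h1t came down later, from 5.27 ± 0.973 and 6.22 ± 0.309 FPKM at day 5 to 1.12 ± 0.036 and 1.199 ± 0.547 FPKM at day 8. Hist1h2aa passed the filter at 4 days, Hist1h2ba at 2 and Hist1h1t at 5, and no call was made for any of them after day 0.

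The third member called at day 0 was Hist1h1c, which encodes linker histone H1.2. It held 317, 290 and 289 FPKM in control and 255, 258 and 238 FPKM in knockout (-0.25, SE 0.060, adjusted p = 0.0305). The groups did not overlap, but the call was lost in each of the 6 fits without 1 library. Slbp was lower too at day 0 (124 ± 2.64 and 103 ± 7.92 FPKM, SD, n = 3, log2 fold change -0.27, adjusted p = 0.0324, limma). So were Eri1, a nuclease of the histone stem-loop (-0.34, adjusted p = 0.0234), and Upf1, a helicase of histone mRNA decay (-0.41, adjusted p = 0.0250). Of the 18 genes of their list 3 were lower and 0 higher, with a median of -0.05. Over all genes 8.03% were lower and 6.49% higher, with a median of -0.01.

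DNA replication genes had 5 of 28 lower and 1 higher at day 0, when 8.03% of all genes were lower and 6.49% higher, and their median was -0.05 against -0.01 over all genes. Mcm2 (-0.36, adjusted p = 0.00467), Gins2 (-0.58, adjusted p = 0.0110) and Cdt1 (-0.58, adjusted p = 0.0116), all of the replication licensing and helicase machinery, had the lowest adjusted p-values. Chaperones went both ways: Asf1a was higher (0.44, adjusted p = 0.0135) and Asf1b (-0.45, adjusted p = 0.0156) and Chaf1b (-0.32, adjusted p = 0.0127) were lower, with 3 of 17 higher and 2 lower in all. Of the replacement variants, H2afy, the gene of macroH2A1, was lower (65.4 ± 2.83 and 33.9 ± 0.636 FPKM; -0.93, adjusted p = 1.64e-04), as was H2afj (-0.45, adjusted p = 0.0168), and H1f0, a linker variant of resting cells, was higher (0.49, adjusted p = 0.00757).

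Days 3, 5 and 8 gave 1 call each. At day 3, 1 of 60 members was lower and 0 higher (1.75% of the 11976 genes called, 1.09% higher and 0.668% lower; 6 members at an unadjusted p under 0.05). It was the H3 gene Hist1h3g, which had 104, 88.0 and 208 FPKM in the control libraries and 34.7, 96.9 and 22.2 FPKM in the knockout libraries (-1.53, SE 0.362, adjusted p = 0.0169, limma). Knockout replicate 2 lay above a control library, so the groups overlapped, and the call was lost without knockout replicate 3, without control replicate 1 and after rescaling. Leaving out knockout replicate 1 or 2 gave 2 and 3 calls. At this day the median of all genes was 0.15 and that of the members 0.19. The members' median was -0.07 without control replicate 1, the library with the lowest histone sum of the day (4479 FPKM against 7032 and 8390.3 FPKM) and with mt-Rnr2 above 0.

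At day 5, 1 of 60 members was higher and 0 lower (10.4% of 12447 genes called, 7.07% higher and 3.32% lower; 7 members at an unadjusted p under 0.05). Hist1h2af, an H2a gene, held 52.7, 85.1 and 69.2 FPKM in control and 91.3, 106.6 and 121.7 FPKM in knockout (0.64, SE 0.174, adjusted p = 0.0413). The groups did not overlap, but 79.7% of its 50-base windows are shared with other members, and the call was lost after rescaling and without control replicate 1 or 3 or knockout replicate 2 or 3. The medians were 0.14 for members and 0.13 for all genes, and 0.00 for both after rescaling. At this day 3 of 5 markers of streak and cardiac mesoderm were lower and 1 higher (106 to 141 FPKM against 136 to 150.5 FPKM).

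At day 8, 1 of 58 members was higher and 0 lower (3.28% of 12695 genes called, 1.28% higher and 2.0% lower; 7 members at an unadjusted p under 0.05). Hist1h3a, an H3 gene, held 7.07, 5.32 and 7.03 FPKM in control and 12.3, 15.9 and 10.4 FPKM in knockout (0.88, SE 0.182, adjusted p = 0.0282). Its groups did not overlap, but the call was kept only without knockout replicate 3 among the 6 fits without 1 library, in which case 4 members were higher. The sum of all members was 1.27 times as high in knockout, with overlap between the groups, and 1.09 times without knockout replicate 2, in which Hist1h2bb reached 1407 FPKM.

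Whether the line difference itself differed between days was tested over the 36 libraries, and 3 of 58 members passed (limma F test, adjusted p under 0.05; 17.1% of 13022 genes passed). They were Hist1h3a (adjusted p = 0.0120), Hist1h1a (adjusted p = 0.0305) and Hist1h4j (adjusted p = 0.0474); Hist1h3e (0.110) and Hist1h4i (0.115) came next. Hist1h3a had log2 fold changes of 0.03, 0.11 and -0.13 at days 0, 3 and 5 and of 0.88, 0.76 and 0.70 at days 8, 10 and 12. Hist1h1a had -0.03, 0.25, 0.29, 0.55, 0.95 and -0.04 over the 6 days, with its highest value at day 10. At day 12 control libraries held 189, 154 and 167 FPKM and knockout libraries 158, 185 and 153 FPKM. Hist1h4j went from -0.38 at day 0 to 0.81 at day 10. Without the libraries of 1 replicate number, 1, 0 and 0 members passed, so these results rest on all 3.

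The make-up of the linker histones differed between days. In control, Hist1h1a held 42.9% ± 1.07 of the summed H1 FPKM at day 0 and 17.7% ± 0.763 at day 10, and Hist1h1e, the gene of H1.4, 5.56% ± 0.579 and 18.8% ± 2.12 (SD, n = 3). Hist1h1c went from 20.2% ± 0.0431 to 31.5% ± 2.37, and Hist1h1b, the gene of H1.5, stayed between 22.8% and 31.7% over the 6 days. Of the 6 H1 genes, Hist1h1e alone had a higher control mean at day 12 than at day 0 (152 ± 38.3 and 82.0 ± 5.72 FPKM).

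The knockout line had a larger Hist1h1a share at day 10, 22.0%, 25.7% and 25.7% against 18.6%, 17.1% and 17.5% in control, with no overlap. At day 8 it was 25.9%, 25.1% and 25.0% against 22.6%, 22.4% and 20.2%. At day 3 the knockout share was also above control (37.0% to 40.6% against 30.7% to 34.6%), and that of Hist1h1e below it (8.03% to 9.10% against 10.2% to 11.8%). At day 12 the Hist1h1a shares overlapped (19.2% to 23.5% and 19.8% to 22.3%). Shares within a library do not depend on the scale of that library, and they are given here without a test.

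**Figure D5:**
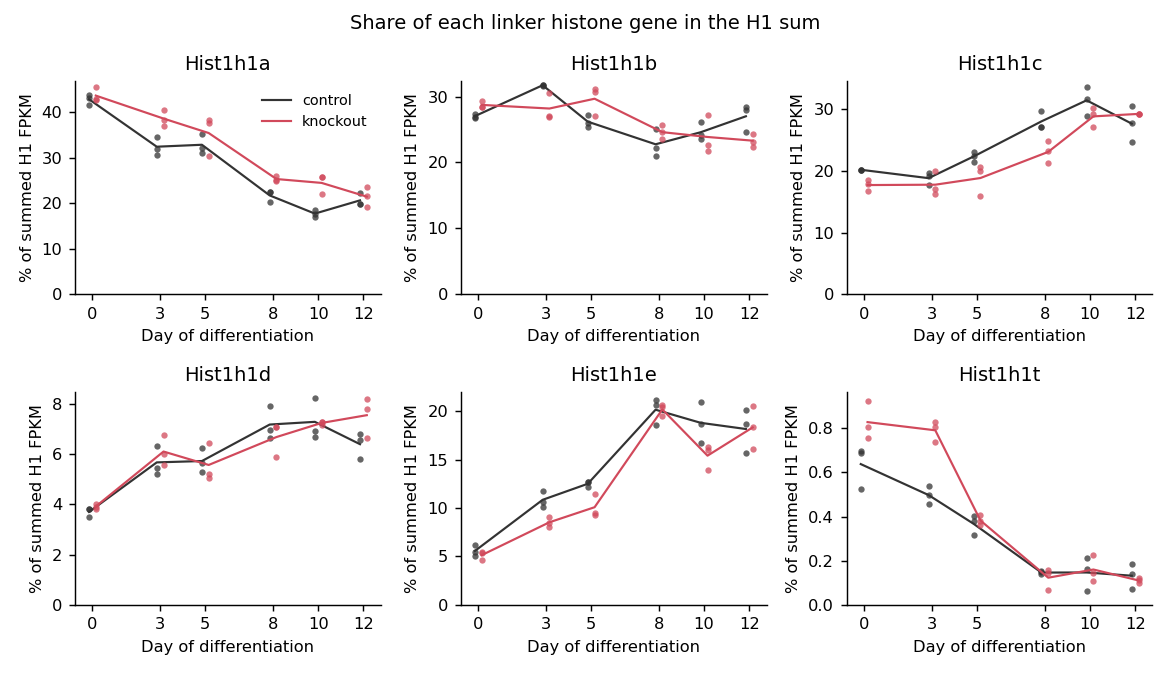
Percent of the summed H1 FPKM held by each of the 6 linker histone genes (y axis) by day (x axis) in control (dark) and knockout (red) libraries, with points for libraries and lines through the means of 3. The share of Hist1h1a comes down from 42.9% to 17.7% in control between days 0 and 10 and that of Hist1h1e goes up from 5.56% to 18.8%.

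Of the members known to be polyadenylated in some cells, 6 were tested at day 10. Of these, 2 were higher and 0 lower, when 15.0% of all genes were higher and 5.12% lower. Among all tested members 28 of 57 were higher. The median log2 fold change of the 6 was 0.42, against 0.51 for all tested members and 0.17 for all genes. Hist1h2be held 9.42, 16.0 and 12.0 FPKM in control and 20.0, 16.7 and 21.8 FPKM in knockout (0.63, SE 0.177, adjusted p = 0.0255), and Hist3h2a 26.9, 34.8 and 29.2 FPKM and 46.3, 48.1 and 42.01 FPKM (0.57, SE 0.139, adjusted p = 0.0128). Neither gene's libraries overlapped. Hist1h2bc (0.36, adjusted p = 0.0775), Hist4h4 (0.47, adjusted p = 0.107), Hist3h2ba (0.36, adjusted p = 0.315) and Hist1h1c did not pass, and Hist2h2be, at 0.514 ± 0.082 and 0.512 ± 0.081 FPKM, was under the filter.

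Spread between replicates was larger in histone genes than in most genes. The median SD within a group was 0.31 on the log2(FPKM + 1) scale for members and 0.20 for all genes. Hist1h3g (0.77) and Hist1h2bb (0.50) stood out: 0.852% and 2.04% of all genes had a larger SD. Both were highest of the day in the same library at days 0, 3, 5, 10 and 12, though not at day 8. In control replicate 3 of day 3 they reached 208 and 1476 FPKM, in control replicate 3 of day 12 118 and 1866 FPKM. At day 8 Hist1h3g was high in knockout replicates 2 and 3 (50.8 and 51.9 FPKM) and Hist1h2bb likewise (1407 and 970.5 FPKM). What these libraries share was not tested.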

How the data were processed

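The authors deposited 1 table per day with FPKM values per gene for the 6 libraries of that day. Per the labels' protocols, RNA was extracted with RNeasy columns and libraries were made with the ScriptSeq Complete Gold kit, which removes ribosomal RNA and applies no poly(A) selection. Per the submitters' processing notes, TopHat and Cufflinks were used with the mm9 build; versions, annotation and the treatment of fragments shared by gene copies are not given in the sources used here. Value columns not used numbered 0, and the largest correlation between any 2 libraries was 0.995.

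From these values, log2(FPKM + 1) was tested per day with limma 3.58.1 (limma-trend, R 4.3.3) over all genes with a mean of at least 1 FPKM that day, with Benjamini-Hochberg adjustment over all of them and a threshold of 0.05. The difference of the line effect between days was an F test in 1 fit over 36 libraries. Fold changes are knockout minus control on that scale and understate changes of low genes. Class sums, shares and sequences used Python 3.11.15 with pandas 2.3.3 and numpy 2.4.6, and figures matplotlib 3.10.9. Rescaling divided each library by a median-ratio factor. The fit was tested on simulated data. Stem-loops were searched in GENCODE transcripts and promoters taken from RefSeq, both on GRCm38 and not on the authors' build, so no coordinate was joined to the values.

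Named genes were the 2 members of each class with the highest mean, the 4 highest and 4 lowest called per day, the 5 members with the lowest p for a difference between days, the germline-type and polyadenylation-prone lists, at most 3 called genes per other list and day, and Slbp, Npat, Pcna and H2afz. Other members were named for their place in a comparison after their values were seen. The members, lists and tests were chosen with earlier results of these data known. Alternatives were another pseudocount (0.1), no filter, rescaling, a replicate block, 1 fit over all days and leaving out each library; sums without Hist1h2bb were added after its values were seen. Absolute depth is unknown, so no counting interval is given.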

Additional observations from a re-analysis of the deposited data

Results flagged for a closer look

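In 3 of 58 members the knockout effect differed between days by a limma F test over the 36 libraries (adjusted p under 0.05). The share over all 13022 genes tested was larger, at 17.1%. Without the libraries of 1 replicate number, 0 to 1 members passed. For Hist1h3a, an H3 gene, the adjusted p was 0.0120. For Hist1h1a, the gene of linker histone H1.1, the adjusted p was 0.0305. For Hist1h4j, an H4 gene, the adjusted p was 0.0474. All 3 had fold changes above 0 at days 8 and 10, while at day 12 Hist1h3a and Hist1h4j stayed above 0 and Hist1h1a was at -0.04.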

How the results depend on the processing

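The call of 28 members higher at day 10 kept its direction in all alternatives run, with 28 under a pseudocount of 0.1, 19 after rescaling, 19 in 1 fit over 36 libraries, 17 to 31 without 1 library (17 without control replicate 3), and 4 with no filter on low values, which called 3.08% of all genes. The main counts at days 0, 3, 5, 8 and 12 were 3, 1, 1, 1 and 1. With no filter they were 1, 0, 0, 0 and 0. After rescaling they were 4, 4, 1, 2 and 0. In 1 fit over 36 libraries they were 0, 2, 0, 1 and 1. With a pseudocount of 0.1, day 3 had 0. Without 1 library the counts ran from 1 to 4 at day 0, 0 to 3 at day 3, 0 to 2 at day 5, 0 to 4 at day 8 and 0 to 6 at day 12. Members whose line effect differed between days numbered 3, or 9 after rescaling (31.8% of all genes) and 0 to 1 without 1 replicate number. The median log2 fold change at day 10 was 0.33 after rescaling. Summing the entries of a symbol changed nothing, since no symbol had several. Where no share of all genes is given beside a count, its change cannot be told apart from a general change in calls. The causes of these differences were not tested.

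No pairing by replicate number was detected: correlations of same-numbered libraries ran from -0.12 to 0.27, and 7 of 18 control libraries correlated best with their own number. With 3 libraries in a group this check is weak and cannot exclude pairing. With a replicate block the calls at days 0, 3, 5, 8, 10 and 12 were 1, 2, 1, 1, 32 and 0, and 5 members differed between days. The same limit holds for these counts, which have no share of all genes beside them.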
